A study of Mus musculus with 8 samples.

Results

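Regulators of G-protein signalling, the RGS proteins, switch off the heterotrimeric G proteins that carry signals from chemokine, lipid and other seven-transmembrane receptors. A receptor loads the G alpha subunit with GTP, and the RGS domain speeds up the hydrolysis of that GTP, so that the signal ends sooner. In lymphocytes the family is known for limiting migration towards chemokines, and several members are induced when T cells are activated. The 11 genes described here are the rows whose symbol is Rgs followed by a number, out of 11354 genes in the count table. The members were selected by symbol, but the family was picked out because Rgs10 was already known to be low in the libraries labelled knock-out. The members' differences between the labels are therefore given as a description, and nothing is supported with them. RefSeq lists 21 mouse genes with such a symbol, and of those without a row Rgs18 was asked for and is not analysed here.

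The libraries are poly(A) RNA-seq of CD4+ T cells of Black6 background recovered from RAG-/- hosts. These hosts lack T and B cells of their own but keep their natural killer and myeloid cells. Wild-type cells had been transferred in 4 libraries and Nlrp6-/- cells in 4, and the hosts are numbered 1, 2, 4 and 5 under each label. One label field places the cells in the spleen and others in the colonic lamina propria; ages and times after transfer are not stated. The library names used here give the label and the host, as in WT 1 and KO 1. Levels are in CPM, read counts scaled to a common effective library size. Means come with the SD of 4 libraries. Log2 fold changes are labelled knock-out over labelled wild type, ± SE. A gene was called where its Benjamini-Hochberg adjusted p from edgeR's quasi-likelihood test over all 11354 genes was below 0.05.

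Facts of the whole table bear on every direction given here. Nlrp6 itself went against the labels, with 3 to 8 counts in the libraries labelled wild type and 329 to 648 in those labelled knock-out, so directions below refer to labels and not to a genotype. Totals were 35198192 to 40310721 counts per library. T cell markers were present throughout, with 7 genes summing to 5787 to 6708 CPM under the wild-type label and 5529 to 5911 under the knock-out label, and 0 of them called. Markers of myeloid cells differed: all 18 had a row, 17 were called higher, and they summed to 53.1 to 93.0 CPM against 317 to 1012 CPM. Of 7 neutrophil markers 5 had a row and 4 were called higher, at 13.4 to 22.2 against 35.5 to 77.0 CPM. Of 10 platelet markers only the integrin genes Itga2b and Itgb3 had a row, at a summed 101 to 115 against 115 to 119 CPM, and 1 was called higher. CD8 markers were at 4.00 to 9.50 against 8.98 to 42.4 CPM: Cd8a was called higher (2.21), whereas Cd8b1 was not called (-0.29). Of 4 natural killer markers 2 had a row, at 179.7 to 313 against 224 to 246 CPM. Nearly all of that sum was Eomes (237 ± 57.4 and 229 ± 10.5 CPM). Epithelial markers were at 28.4 to 42.2 against 31.8 to 36.2 CPM, and 0 genes of the natural killer and epithelial lists were called. The 6 B cell markers had no row. In bulk RNA, a change in the number of cells of a type and a change in RNA per cell cannot be told apart.

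The promoter windows of Rgs10, Rgs16 and Rgs2, the non-overlapping members with a single RefSeq window, are shown so that the members whose libraries did not overlap can be compared letter by letter. Each runs from 250 bases before to 50 bases after an annotated start (RefSeq, GRCm38.p6, the build named mm10), 5′ to 3′ on the gene's own strand. Capitals mark GC boxes, GGGCGG on either strand, and the half-site TGACG on either strand that is contained in cyclic AMP response elements.
Rgs10, chr7:128418123-128418422, minus strand: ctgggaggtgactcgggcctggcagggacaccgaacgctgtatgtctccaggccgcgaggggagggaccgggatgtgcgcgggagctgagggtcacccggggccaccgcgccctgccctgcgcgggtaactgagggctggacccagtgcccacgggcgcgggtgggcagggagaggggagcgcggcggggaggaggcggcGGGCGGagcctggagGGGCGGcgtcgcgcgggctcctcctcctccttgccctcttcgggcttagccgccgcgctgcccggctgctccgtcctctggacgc
Rgs16, chr1:153740103-153740402, plus strand: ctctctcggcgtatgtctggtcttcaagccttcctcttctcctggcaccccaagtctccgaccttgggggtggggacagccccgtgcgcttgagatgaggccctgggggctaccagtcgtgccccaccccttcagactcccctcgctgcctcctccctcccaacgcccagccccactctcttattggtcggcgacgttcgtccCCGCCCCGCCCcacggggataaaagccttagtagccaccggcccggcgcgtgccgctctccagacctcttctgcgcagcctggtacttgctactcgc
Rgs2, chr1:144004100-144004399, minus strand: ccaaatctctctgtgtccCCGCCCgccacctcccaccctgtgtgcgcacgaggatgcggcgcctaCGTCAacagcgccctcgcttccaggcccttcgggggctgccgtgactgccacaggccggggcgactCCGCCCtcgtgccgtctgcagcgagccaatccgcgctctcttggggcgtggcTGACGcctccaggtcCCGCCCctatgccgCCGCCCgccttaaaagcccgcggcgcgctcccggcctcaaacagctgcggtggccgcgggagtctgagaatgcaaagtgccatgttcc
All 3 windows are rich in G and C, at 76.0% for Rgs10, 66.0% for Rgs16 and 70.0% for Rgs2. Rgs10 and Rgs16 hold 2 GC boxes each, which overlap in Rgs16, and no TGACG. Rgs2 holds 4 GC boxes and 2 TGACG half-sites. Of 32851 windows of this length in the table, 35.7% hold a GC box and 20.8% a TGACG. These matches are a description of the letters and not of any factor's binding. Windows were listed for 8 of the 11 members.

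On the log2 scale Rgs10 had the largest difference of the 11 members (-3.05) and Rgs16 the next (-1.21). Rgs12 (-0.45), Rgs5 (0.42) and Rgs2 (0.35) differed by similar sizes in either direction, and the other 6 lay between -0.08 and 0.27. By the call rule 3 of 11 members were lower under the knock-out label, Rgs10, Rgs16 and Rgs12, and 0 were higher. Over all genes 3.84% were called lower, 6.20% higher and 10% in either direction. Because this contrast led to the family, nothing is read from the members' count. The 4 libraries of one label lay entirely below or above those of the other for 3 members that were lower and for 1 that was higher, Rgs2; the same held for 7.37% and 8.60% of all genes. The median log2 fold change of the members was 0.06, and 7 of the 11 had a positive value, against a median of 0.00 and 5569 positive values over all genes.

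**Figure D1:**
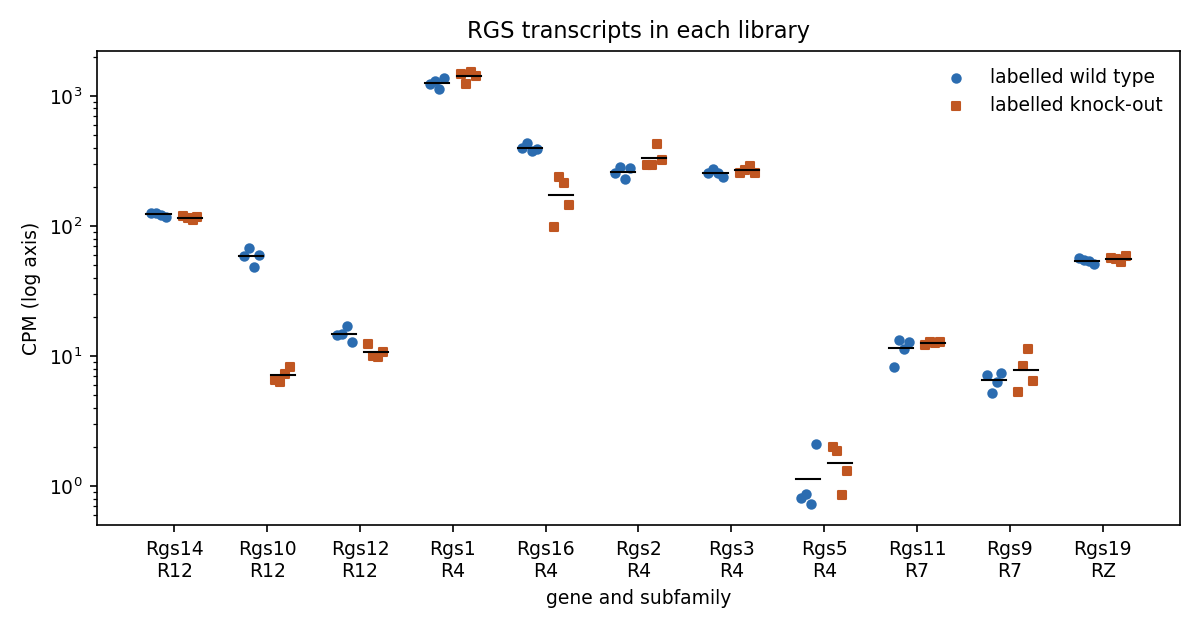
CPM on a log axis of the 11 RGS genes, grouped by subfamily, with 1 point per library and a line at the mean of each label. Rgs10 and Rgs16 under the knock-out label lie clear below the wild-type label, whereas Rgs1, Rgs3, Rgs14 and Rgs19 overlap.

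The R12 subfamily joins the small protein Rgs10 to the large scaffolds Rgs12 and Rgs14. Rgs10, a compact protein that acts on the Gi family and is best known from microglia and other immune cells, lies on chromosome 7 from 128373621 to 128419506. It was at 59.1, 67.6, 48.5 and 60.2 CPM in WT 1, WT 2, WT 4 and WT 5 and at 6.60, 6.37, 7.25 and 8.29 CPM in KO 1, KO 2, KO 4 and KO 5. Its lowest library labelled wild type was thus several times its highest library labelled knock-out, and the spread within each label was small. The means were 58.9 ± 7.85 and 7.13 ± 0.864 CPM, 8.26 times as much under the wild-type label, with a log2 fold change of -3.05 ± 0.12. Rgs10 transcripts did not vanish: 247 to 329 counts remained in each library labelled knock-out. The value lay between -3.18 and -2.98 in the 18 other fits. These fits reuse the same libraries and are not all separate, so they are no further support.

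Rgs12 and Rgs14 carry, beside the RGS domain, Ras-binding domains and a GoLoco motif that holds Gi alpha subunits in their GDP-bound form. Rgs12, on chromosome 5 from 34948929 to 35039642, was at 14.6, 14.8, 17 and 12.8 CPM under the wild-type label and at 12.5, 10.1, 9.91 and 10.8 CPM under the knock-out label. The labels came close here, with KO 1 just under WT 5. The log2 fold change was -0.45 ± 0.11 (14.8 ± 1.74 and 10.8 ± 1.16 CPM), and with 1 library left out at a time 3 of 8 fits kept the call. It ended without WT 1, WT 2, WT 4, KO 2 or KO 5 in turn (edgeR adjusted p from 0.0588 to 0.0724). Rgs14, on chromosome 13 from 55369732 to 55384687, was at 125, 126, 121 and 118 CPM and at 119, 115, 112 and 117 CPM. KO 1 lay just above WT 5, so the labels overlapped at a log2 fold change of -0.08 ± 0.04. The 3 relatives of 1 subfamily therefore differed by very unequal amounts.

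The R4 subfamily consists of short proteins that are little more than an RGS domain, apart from the longer Rgs3. Rgs16, a member induced by T cell activation that acts on Gi and Gq, lies on chromosome 1 from 153740353 to 153745468. It was at 396, 430.3, 379 and 389.7 CPM in the libraries labelled wild type and at 98.1, 236, 212 and 144 CPM in KO 1, KO 2, KO 4 and KO 5. The labels did not overlap, but the libraries labelled knock-out disagreed among themselves far more than the others: highest over lowest was 2.41 there and 1.14 under the wild-type label. The means of 399 ± 22.2 and 172 ± 63.2 CPM gave a log2 fold change of -1.21 ± 0.23, between -1.40 and -1.02 with 1 library left out. The order of Rgs16 over these libraries was KO 1, KO 5, KO 4, KO 2 from low to high, and that of their myeloid sums KO 1, KO 2, KO 5, KO 4. KO 1 was lowest in both, and the part of myeloid cells in the Rgs16 value was not tested. Without KO 2 and KO 4, the libraries with the most Rgs16 under the knock-out label, the value was -1.73. Leaving out those libraries makes the difference larger by itself, so nothing is read from it.

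Rgs1 is known as an abundant RGS gene of gut lymphocytes that restrains chemokine receptors. On chromosome 1 from 144244669 to 144249104, it was at 1243, 1298, 1128 and 1381 CPM under the wild-type label and at 1474, 1232, 1515 and 1424 CPM under the knock-out label. KO 2 lay among the libraries labelled wild type, and the other 3 lay above them all. The log2 fold change was 0.16 ± 0.08 (1262 ± 106 and 1411 ± 125 CPM). Rgs2, which prefers Gq, lies on the same chromosome from 143999338 to 144004149. Its levels were 255, 284, 230.4 and 281 CPM against 296, 294, 426 and 321 CPM. Every library labelled knock-out was above every library labelled wild type, KO 2 by a small margin and KO 4 by a wide one.

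The log2 fold change of Rgs2 was 0.35 ± 0.12 (262 ± 24.9 and 334 ± 62.2 CPM). edgeR did not call it, whereas DESeq2 did (adjusted p = 0.0329, in a fit that called 8.16% of genes higher). KO 4 also held the highest myeloid sum, 1012 CPM, followed by KO 5 with 739.1 CPM; without KO 4 the log2 fold change was 0.21 and without KO 4 and KO 5 it was 0.17. KO 4 and KO 5 are also the only libraries with code 8 in their sample descriptions, the others having code 7. With that code as a term the value was also 0.17, because the label difference then rests on the libraries with code 7 alone. It is the same estimate as without KO 4 and KO 5 and not a separate check. The code and the high myeloid sums coincide in KO 4 and KO 5 and cannot be told apart. Their part in the Rgs2 value was not tested.

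**Figure D2:**
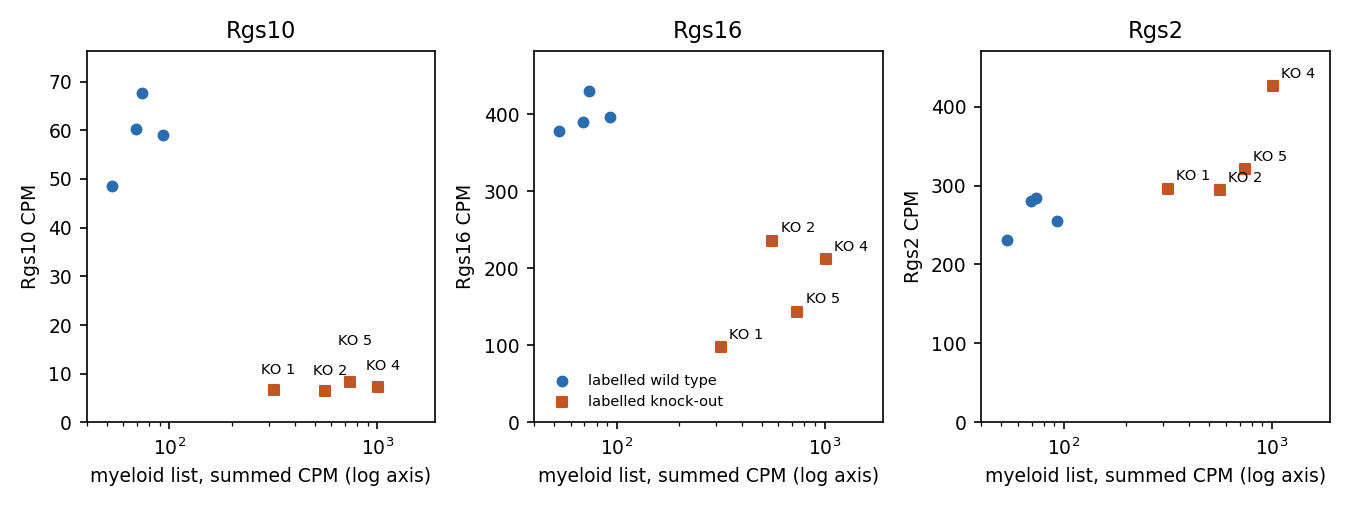
CPM of Rgs10, Rgs16 and Rgs2 in each library against the summed CPM of 18 myeloid markers (log axis). KO 4 is highest for both Rgs2 (426 CPM) and the myeloid sum (1012 CPM), while Rgs10 stays between 6.37 and 8.29 CPM over the whole range of the libraries labelled knock-out.

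Rgs3, a longer R4 protein that acts on Gi and Gq (chromosome 4, 62559835 to 62703019), was at 239.7 to 272 CPM under the wild-type label and at 255 to 289 CPM under the knock-out label. The ranges overlapped, at a log2 fold change of 0.06 ± 0.06. Rgs5, known from pericytes and vascular smooth muscle (chromosome 1, 169655501 to 169695813), was the least counted member, with 29 to 81 counts in every library of either label. Its CPM were 0.808, 0.866, 0.734 and 2.11 against 2.02, 1.86, 0.851 and 1.31, so that WT 5 sat with the libraries labelled knock-out and KO 4 with the other libraries labelled wild type. The log2 fold change of 0.42 ± 0.40 became 0.91 without WT 5 and was not called in either case.

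The R7 proteins Rgs9 and Rgs11, which need the G beta subunit Gnb5 as a partner and are best known from retina and brain, were scarce. Rgs9 (chromosome 11, 109225348 to 109298181) was at 7.10, 5.20, 6.37 and 7.39 CPM against 5.30, 8.43, 11.3 and 6.45 CPM. Its labels overlapped, and KO 4 was again the highest library, with a log2 fold change of 0.27 ± 0.22 that was 0.05 without KO 4. Rgs11 (chromosome 17, 26202527 to 26211324) was at 8.27, 13.3, 11.4 and 12.8 CPM against 12.1, 12.9, 12.6 and 12.9 CPM. Only WT 1 stood below the rest, and the log2 fold change of 0.14 ± 0.13 was 0.01 without it. Gnb5 was at 4.44 ± 0.556 and 4.2 ± 0.348 CPM and was not called (-0.08 ± 0.13). Rgs19, the RZ subfamily member also called GAIP (chromosome 2, 181688419 to 181694537), was at 51.1 to 56.9 CPM against 52.9 to 59.0 CPM, a log2 fold change of 0.05 ± 0.05.

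To ask whether relatives were higher where Rgs10 was low, levels were set beside each other per gene length. Divided by the deposited gene length, levels are CPM per kilobase. That length need not be that of the transcripts present, so the order of genes on this scale is approximate. Under the wild-type label the order was Rgs1 (755 ± 63.5), Rgs16 (171 ± 9.50), Rgs2 (87.2 ± 8.28), Rgs10 (54.7 ± 7.30), Rgs14 (49.3 ± 1.51), Rgs3 (29.9 ± 1.57), Rgs19 (25.3 ± 1.16), Rgs11 (2.79 ± 0.553), Rgs12 (2.40 ± 0.281), Rgs5 (0.625 ± 0.364) and Rgs9 (0.503 ± 0.0754). Among neighbours in that order, the ranges of Rgs10 and Rgs14, of Rgs11 and Rgs12 and of Rgs5 and Rgs9 overlapped, and the others did not.

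Under the knock-out label Rgs10 dropped from rank 4 to rank 7, at 6.62 ± 0.803 CPM per kilobase, below Rgs19 (26.2 ± 1.17) and above Rgs11 (3.07 ± 0.0914). Rgs16 fell behind Rgs2, at 73.8 ± 27.1 against 111 ± 20.7, and the ranges of these neighbours overlapped. The range of Rgs16 reached down to that of Rgs14 (46.6 ± 1.31), and Rgs5 and Rgs9 again overlapped. Rgs1 remained first by far at 845 ± 74.7. The rest of the order, Rgs14, Rgs3, Rgs19 and then Rgs11, Rgs12, Rgs5 and Rgs9, was as before.

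Summed over the 11 members, the level was 1165, 1233, 1068 and 1249 CPM per kilobase in the libraries labelled wild type and 1139, 1053, 1255 and 1139 in those labelled knock-out. The labels overlapped, with means of 1179 ± 82.1 and 1146 ± 82.8, a change of -2.73%. Labelled knock-out minus labelled wild type, the difference in mean CPM per kilobase was -48.1 for Rgs10, -96.9 for Rgs16, 89.3 for Rgs1 and 23.9 for Rgs2. Rgs1, whose difference was not called, carries most of the sum under either label. Without Rgs10 and Rgs16 the summed level was 953 ± 70.7 and 1066 ± 88.4, with KO 2 (945.8) among the libraries labelled wild type. Without Rgs1 it was 423 ± 25.6 and 302 ± 39.1, and the labels lay apart. No relative was called higher by edgeR or limma-voom. At an unadjusted p under 0.05 edgeR had 1 of 10 relatives higher, Rgs2, which DESeq2 called. At that threshold 1436 of all 11354 genes were higher.

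**Figure D3:**
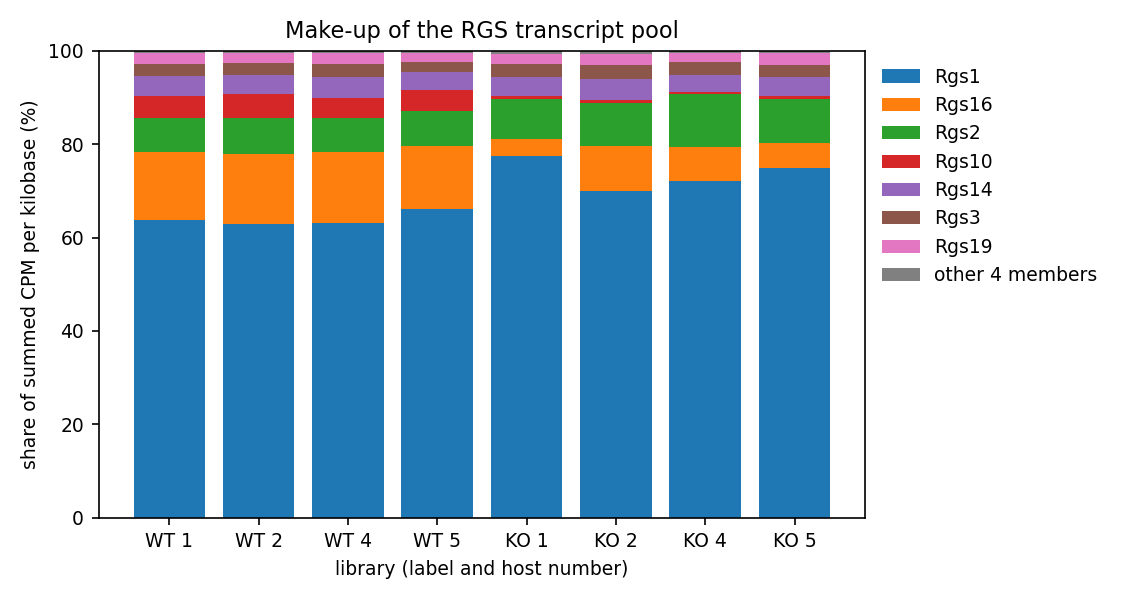
Share of each RGS gene in the summed CPM per kilobase of the 11 members, 1 bar per library. Rgs10 makes up 4.22% to 5.10% under the wild-type label and 0.537% to 0.677% under the knock-out label, and Rgs1 goes from 63.0% to 66.2% up to 70.0% to 77.4%.

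As shares of the summed level, Rgs10 was 4.63% ± 0.371 and 0.578% ± 0.0666 and Rgs16 14.5% ± 0.810 and 6.48% ± 2.54. Rgs1 was 64.0% ± 1.46 and 73.6% ± 3.20, Rgs2 7.39% ± 0.212 and 9.64% ± 1.14. The shares of Rgs3, Rgs14 and Rgs19 each differed by less than 1 percentage point between the labels. A share rises when others fall, so these figures restate the levels and are not further evidence of them.

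The other genes of the pathway were taken from 6 lists, in which 99 of 131 genes had a row. Of these 99, 2 were called lower and 11 higher (13.1%, beside 10% of all genes), with a median log2 fold change of 0.00 as over all genes. Of 10 G alpha subunits, the direct targets of RGS domains, 0 were called by edgeR, beside 10% of all genes. An unadjusted p under 0.05 was reached by 1 of them, beside 2666 of all 11354 genes. Gnai2, the main Gi subunit of lymphocytes, was at 766 ± 32.0 and 738 ± 32.5 CPM (-0.05 ± 0.05). Gnai3 (-0.01 ± 0.04), Gna13 (0.08 ± 0.07) and Gna11 (-0.10 ± 0.07) differed as little. Gnaq, the Gq subunit, was at 19.1 ± 2.60 and 23.6 ± 4.04 CPM (0.31 ± 0.13, edgeR adjusted p = 0.204), and Gnao1 was at 1.86 ± 1.39 and 1.03 ± 0.222 CPM (-0.84 ± 0.45).

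Of 10 G beta and gamma subunits 2 were called, both higher (20%, beside 10% of all genes). Gngt2, a gamma subunit, averaged 11.7 ± 1.00 CPM under the wild-type label and rose to 19.1 ± 1.45 CPM (0.70 ± 0.08, edgeR adjusted p = 0.000687). Gng12, another gamma subunit, averaged 2.06 ± 0.192 and 4.72 ± 1.41 CPM (1.20 ± 0.23, edgeR adjusted p = 0.00826). The call of Gng12 ended when KO 4 and KO 5 were left out (0.82, edgeR adjusted p = 0.0605) or KO 2 and KO 4 (0.0569). Gng2, the gamma subunit with the third smallest p in the list, was at 297 ± 17.3 and 272 ± 9.84 CPM (-0.13 ± 0.05).

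Among 36 receptors that signal through G proteins, 7 were called higher and 2 lower (25%, beside 10% of all genes). The highest changes were in chemoattractant receptors known from myeloid cells: C5ar1 (3.74 ± 0.37), C3ar1 (4.13 ± 0.46) and the formyl peptide receptor Fpr2 (3.62 ± 0.46) rose from at most 0.590 CPM on average to between 5.59 and 7.95 CPM (edgeR adjusted p at most 0.000976). The homing receptor Ccr7 averaged 7.05 ± 1.79 CPM under the wild-type label and rose to 14.1 ± 2.12 CPM (1.00 ± 0.18, edgeR adjusted p = 0.00692). Its call was lost without KO 2 and KO 4 (adjusted p = 0.0576). Gpr183, Cnr2 and Gpr34 made up the other higher calls, at log2 fold changes of 0.58, 0.97 and 0.63. The lower calls were the follicle-homing receptor Cxcr5 (45.6 ± 16.4 and 13.8 ± 4.27 CPM, -1.73 ± 0.27) and Ccr8 (65.5 ± 11.3 and 42.0 ± 6.09 CPM, -0.64 ± 0.14), both named after their values were seen. With 1 library left out at a time, Gpr34 kept its call in 1 of 8 fits, Cnr2 in 2, Ccr8 in 6 and Gpr183 in 7. Cxcr4, a receptor whose signal Rgs1 and Rgs16 are known to limit, was at 477 ± 23.2 and 534 ± 84.2 CPM (0.16 ± 0.10, adjusted p = 0.387). S1pr1, the exit receptor of lymphoid tissue, was at 144 ± 26.1 and 128 ± 22.2 CPM (-0.18 ± 0.14). The myeloid sum differed between the same libraries by the amounts given above, and its part in the receptor changes was not tested.

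Receptor kinases and arrestins, which end signalling at the receptor itself, gave 1 call among 7 genes (14.3%, beside 10% of all genes). Grk3 averaged 1.64 ± 0.504 and 5.62 ± 2.69 CPM, with KO 1 at 2.35 CPM just below WT 1 at 2.37 CPM (1.77 ± 0.37, edgeR adjusted p = 0.0151). Leaving out WT 4 ended that call (0.0502), as did leaving out KO 2 and KO 4 (0.0878), leaving out KO 4 and KO 5 (0.0854), and limma-voom (0.059). The abundant kinases Grk2 (-0.08 ± 0.05) and Grk6 (-0.01 ± 0.06) and the arrestin genes Arrb2 (0.09 ± 0.04) and Arrb1 (-0.23 ± 0.13) were not called. Of 14 genes of other RGS-domain, GoLoco and chaperone proteins, edgeR called 0, beside 10% of all genes. An unadjusted p under 0.05 was reached by 0 of them, beside 2666 of all 11354 genes. In that list Arhgef1, whose RGS-like domain acts on Gna12 and Gna13, was at 1151 ± 30.1 and 1125 ± 28.8 CPM (-0.03 ± 0.04), and the GoLoco protein gene Gpsm3 at 159 ± 11.2 and 158 ± 4.59 CPM. The G alpha chaperone gene Ric8a (-0.09 ± 0.05), Gpsm1 (0.14 ± 0.07), Snx25 (-0.17 ± 0.08) and Axin2 (0.22 ± 0.12) were not called either. Without KO 4 and KO 5, Snx25 (-0.31, edgeR adjusted p = 0.0426) and Arrb1 (-0.46, 0.0347) were called lower. Of 22 effectors 1 was called (4.55%, beside 10% of all genes). Pik3r6, a regulatory subunit of the G beta gamma-driven PI3 kinase, averaged 0.171 ± 0.0403 CPM and rose to 2.72 ± 1.42 CPM (3.96 ± 0.45, edgeR adjusted p = 0.000553). Among the libraries labelled knock-out, Gng12, Grk3 and Pik3r6 were lowest in KO 1 and highest in KO 4, as was the myeloid sum. Gngt2 was also highest in KO 4 but lowest in KO 2. The part of myeloid cells in these calls was not tested. The cyclic AMP phosphodiesterases Pde4a (0.65 ± 0.19, adjusted p = 0.0585) and Pde4b (0.35 ± 0.11, adjusted p = 0.0725) were not called by edgeR, but both were by DESeq2 (adjusted p = 0.0106 and 0.013).

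**Figure D4:**
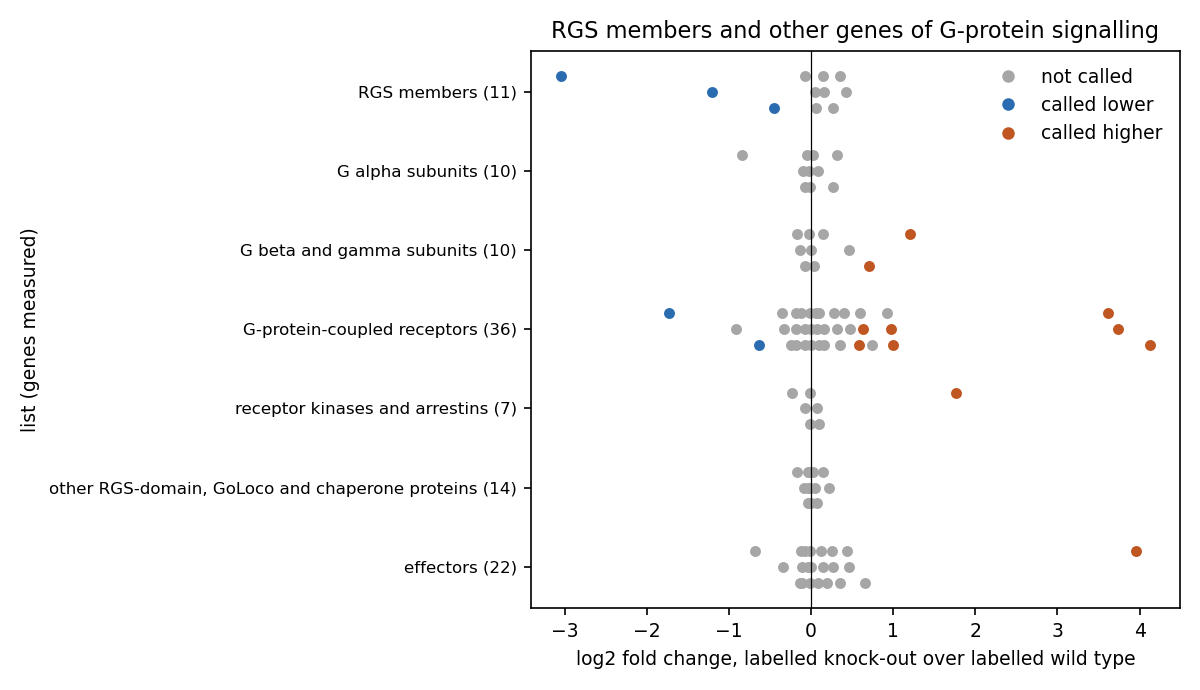
Log2 fold change of each measured gene of the RGS family and of 6 lists of G-protein signalling, coloured by its edgeR call. The G alpha (10 genes) and other RGS-domain (14 genes) lists have 0 calls, beside 10% of all genes. The called receptors reach 4.13, and Rgs10 at -3.05 is the lowest value of all the genes shown.

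Position is a property that the symbol rule did not use. Within 1 Mb of the Rgs10 gene body 37 other genes had a row, and edgeR called 8 lower and 4 higher (32.4%, beside 10% of all genes and 10.7% of the 856 genes on chromosome 7). The neighbours' calls came from the same contrast and libraries as the Rgs10 value. All 12 lay between 488 kb on one side and 277 kb on the other. The nearest measured neighbours were Tial1, an RNA-binding protein gene 20.3 kb away (-0.22 ± 0.05, adjusted p = 0.0152), and BC017158 at 75.5 kb on the other side (-0.30 ± 0.06, adjusted p = 0.0122). Next came the co-chaperone gene Bag3, which rose from 47.1 ± 5.84 to 72.8 ± 6.30 CPM (0.63 ± 0.09, adjusted p = 0.00215), and the adaptor gene Tgfb1i1, which fell from 1.60 ± 0.240 to 0.481 ± 0.112 CPM (-1.73 ± 0.23, adjusted p = 0.00112). Of these 4, Tial1 lost its call without KO 1 (adjusted p = 0.0519). BC017158 lost its call with the library code as a term (edgeR adjusted p = 0.103) and without KO 2 and KO 4 (0.0829).

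Larger differences within 1 Mb were those of a pair of integrin genes, named here for their size. Itgad fell by 4.71 on the log2 scale (SE 0.21) at 168 kb, and the myeloid marker Itgam rose by 3.29 ± 0.36 at 255 kb, so neighbours moved in opposite directions. Itgam is part of the myeloid sum and had the same order as that sum over the libraries labelled knock-out. The part of myeloid cells in the Itgam value was not tested. Besides Bag3 and Itgam the higher calls were Armc5 (0.22 ± 0.05) and Mcmbp (0.16 ± 0.04), which kept their calls in 3 and 2 of 8 fits with 1 library left out and lost them with total library size. Of the lower calls, Zfp646 and 9130023H24Rik held in 1 of these 8 fits and Inpp5f in 2. Tial1 held in 7, and Itgad, Tgfb1i1, BC017158 and Pycard in 8. Without KO 4 and KO 5, BC017158 lost its call (edgeR adjusted p = 0.0862). The count of 12 neighbours called became 6 without KO 1 and 7 without WT 4, KO 2 or KO 5 in turn. Nlrp6, the gene named by the labels, lies 12.5 Mb away on the same chromosome.

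**Figure D5:**
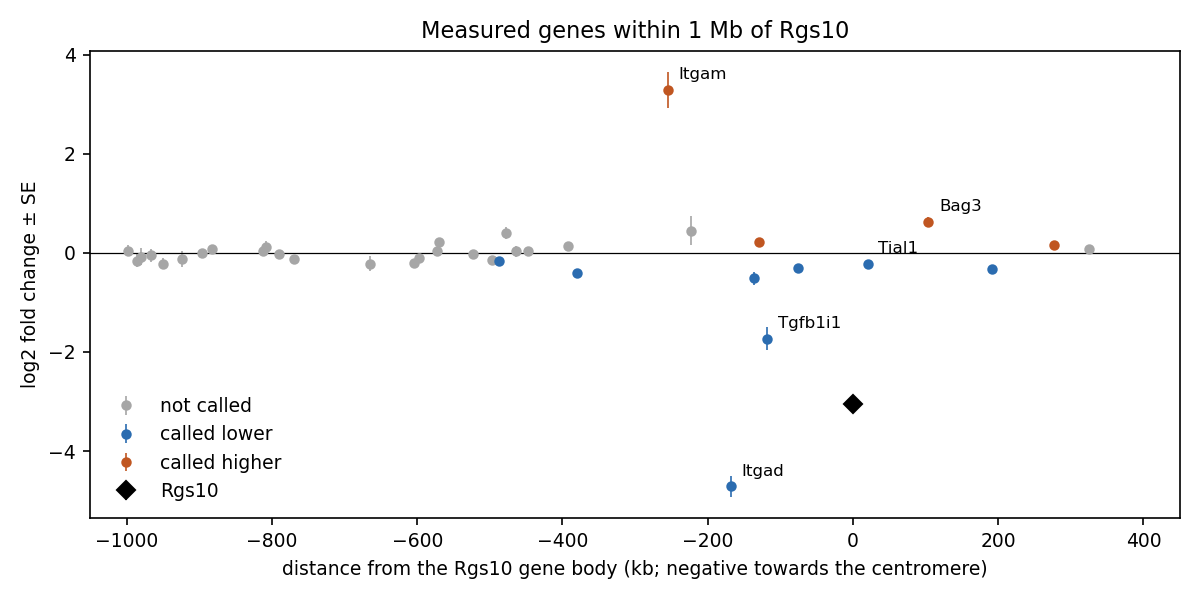
Log2 fold change ± SE of 37 measured genes within 1 Mb of Rgs10, by their distance from its gene body, coloured by edgeR call; Rgs10 is the diamond. Itgad (-4.71) and Tgfb1i1 (-1.73) lie low like Rgs10 (-3.05), Itgam (3.29) lies high, and the called genes sit on both sides of Rgs10.

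Rgs16 and Rgs12, the other members called lower, were described in the same way. Of 9 measured genes within 1 Mb of Rgs16, 0 were lower and 4 higher, and of 19 around Rgs12, 4 were lower and 1 higher. Rgs1 and Rgs2 lie within 1 Mb of each other, and of the 6 measured genes around each of them 0 were called. Around Rgs9, 1 of 13 genes was lower and 4 higher, around Rgs5 2 of 5 were higher, and around Rgs3 1 of 12 was lower and 2 higher. Around Rgs14, 1 of 33 genes was lower and 4 higher, around Rgs11 4 of 44 were lower and around Rgs19 3 of 24. The called share around Rgs16, Rgs5 and Rgs9, over few genes each, was above that around Rgs10. The called share was above the 10% of all genes around every member except Rgs1, Rgs2 and Rgs11. The calls around Rgs16, Rgs5 and Rgs9 were mostly higher. Lower calls were 8 of 37 genes around Rgs10 and 4 of 19 around Rgs12, beside 3.84% of all genes. The 8 around Rgs10 became 4 to 7 with 1 library left out, 3 with the library code as a term and 3 without KO 2 and KO 4. The cause of these counts was not tested. Other gene models overlap the bodies of 5 members in GENCODE M21: the antisense models Gm11209 in Rgs3, Gm43791 in Rgs12 and Gm28513 in Rgs16, the gene Arhgdig on the strand opposite to Rgs11, and Gm15503 on the same strand as Rgs10. Reads from these were not told apart here, as the strand setting of the counting is not given in the sources used here.

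Over the 8 libraries, the genes whose log2 CPM followed Rgs10 most closely were Ptprv (Pearson r = 0.996), Slfn8 (0.994), Ctse (0.992), Dcaf7 (0.991) and Mettl23 (0.988), out of 10880 named genes compared. All 5 had lower means under the knock-out label, and r over both labels takes in that difference. How closely these genes follow Rgs10 within a label was not examined. Ptprv, a receptor-type phosphatase gene, was at 128 ± 8.85 and 28.0 ± 4.42 CPM, and the schlafen gene Slfn8 at 40.6 ± 2.33 and 16.9 ± 1.80 CPM. None of the 5 lies on chromosome 7: Ptprv and Ctse are on chromosome 1 and the others on chromosome 11.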

How the data were processed

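Raw counts per gene for 8 libraries, with Entrez identifiers, symbols and gene lengths, were deposited by the authors as whole numbers. Per the labels' protocols the libraries came from a stranded TruSeq kit and single reads of 81 bases. Per the submitters' processing notes STAR was the aligner and mm10 the build; for the counter, gene models and strand option, nothing is given in the sources used here. The fourth-highest CPM of a deposited gene was never below 0.994, so scarce genes had been left out. Of the 11354 genes, 11337 were placed by Entrez identifier in RefSeq (GRCm38.p6).

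Counts were fitted with edgeR 4.0.16 (TMM, filterByExpr, which kept every gene, estimateDisp, glmQLFit, glmQLFTest, group alone) on R 4.3.3, with p-values adjusted by Benjamini-Hochberg over all genes. The SE is the absolute log2 fold change over the square root of F. The script was tested on simulated counts. Alternatives were RLE factors, total library size, no filter, 1 CPM in 4 libraries, DESeq2 1.42.0, limma-voom (limma 3.58.1), the host number as a block, the library code in the sample descriptions (8 for KO 4 and KO 5, 7 for the others) as a term, and fits without 1 library, without KO 2 and KO 4 and, chosen after seeing the data, without KO 4 and KO 5. Log2 CPM for likeness had a prior count of 2. Each library of a label has its own host number; whether the transferred cells came from separate donors is not stated. Members and lists were chosen with earlier results of these data known. Named genes were all members, the 3 smallest p of each list, 12 fixed pathway genes, the 4 nearest neighbours of Rgs10, the 5 genes most like it and Nlrp6. Gnb5, the other called receptors and the other called neighbours of Rgs10, such as Itgad, Itgam, Armc5 and Mcmbp, were added after their values were seen.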

Additional observations from a re-analysis of the deposited data

Results flagged for a closer look

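Among the 22 sets of 4 libraries checked (11 members under each label), 1 held a library far from the others. Rgs5 was at 2.11 CPM in WT 5 and at 0.734 to 0.866 CPM in the other libraries labelled wild type, and the gap was 0.904 of the whole range, above Dixon's critical value. Chance alone marks about 1 set in 20. The count behind the value was 81.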

How the results depend on the processing

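Rgs10 and Rgs16 were called lower in each of the 18 other fits, which reuse the same libraries and are not all separate. The number of members called was 3 in the fit reported, 4 with DESeq2 (Rgs2 added) and 2 to 3 with 1 library left out. With the host number as a replicate block 2 members, 13 pathway genes and 10 neighbours of Rgs10 were called, Rgs12 being lost (adjusted p = 0.0642); same-numbered libraries deviated together with correlations from -0.138 to 0.256, and 3 of 8 libraries correlated best with their own number, so the numbers were not taken to pair the libraries. Rgs12 was also lost when the library code was fitted (-0.39, adjusted p = 0.153), without KO 2 and KO 4 (-0.36, 0.152) and without KO 4 and KO 5 (-0.39, 0.135). The fits with the library code and without KO 4 and KO 5 take the label difference from the same libraries and are not separate checks. Without KO 2 and KO 4, Rgs3 (-0.01) and Rgs9 (-0.16) changed sign and were not called, and the pathway genes called numbered 7 against 13, which were 9 to 15 with 1 library left out. The 12 neighbours of Rgs10 called became 6 to 12 with 1 library left out, 5 with the library code, 5 without KO 2 and KO 4 and 6 without KO 4 and KO 5; the cause was not tested. The log2 ratio of the summed level per kilobase was -0.04 and lay between -0.086 and -0.001 with 1 library left out, and was 0.02 without Rgs10, within the spread between libraries. Counts of 29 to 81 limit what can be said of Rgs5.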

Other observations

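Around Rgs10 the share of measured genes called by edgeR was 32.4% of 37 within 1 Mb, 6.94% of 72 between 1 and 5 Mb, 11.1% of 45 between 5 and 10 Mb and 13.9% of 79 between 10 and 15 Mb, the last of which includes Nlrp6. In the libraries labelled knock-out the coefficient of variation was 36.7% for Rgs16, 33.2% for Rgs9 and 18.6% for Rgs2, against 5.56%, 15% and 9.49% under the wild-type label. For Rgs11 (2.98% against 19.8%) and Rgs5 (35.3% against 58.2%) it went the other way.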
